A study of Acorus calamus with 8 samples.

Results

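The genes described here encode the protein-degradation machinery of sweet flag (Acorus calamus): the proteasome, the autophagy proteins, and the proteases commonly linked to senescence and vacuolar breakdown. They were chosen by name. A feature of the assembled transcriptome was a member when its best SwissProt hit carried one of these terms in its description: proteasome, autophagy, senescence, cysteine proteinase or protease (inhibitors left out), thiol protease, vacuolar-processing enzyme, metacaspase, aspartic proteinase, subtilisin-like protease or serine carboxypeptidase. The rule found 207 of 24636 features. Of these, 159 took their name from an Arabidopsis thaliana protein and 19 from japonica rice, so the names and the roles given below are those of the proteins hit, not ones shown in sweet flag.

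Plants dismantle their proteins by several routes. Proteins tagged with ubiquitin are unfolded by the 19S regulatory particle and cut inside the 20S core of the proteasome, whereas autophagy wraps cell contents in a membrane coated with the ubiquitin-like protein ATG8 and delivers them to the vacuole. Vacuolar and secreted proteases, among them papain-type cysteine proteases, vacuolar-processing enzymes, aspartic proteinases, subtilisin-like proteases and serine carboxypeptidases, act on the protein that reaches them, and in ageing leaves these routes release nitrogen for transport to other organs.

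RNA was sequenced from leaf and from rhizome tissue of explants whose leaves had been cut back (cut) or left at full height (uncut), sampled at 4 days or a month. The labels count both times from the cutting, also for uncut explants. All explants grew on Murashige and Skoog (MS) medium with the auxins NAA (0.5 mg/l) and 2,4-D (2 mg/l). There was 1 library for each of the 8 combinations and no replicate, so each factor was read over 4 matched pairs of libraries, and a p-value reflects the spread among these libraries alone, which may be technical. The labels name no cultivar, number of explants or pooling.

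Library totals ran from 6876374 to 12541182 counts, of which ribosomal RNA features held 75% to 97.9%. Counts are the authors' RSEM expected counts, rounded. The members together held between 934 counts (uncut rhizome at 4 days) and 17038 counts (uncut leaf at a month), which was 0.553% to 1.01% of the counts of nuclear features. In uncut rhizome at 4 days 31 members reached 10 counts, against 83 to 123 in the other libraries, so low values in that library carry the widest counting error. Of 31 tested features for green leaf markers (chlorophyll a-b binding proteins, Rubisco small chain and Rubisco activase), 26 were lower in rhizome and none was higher, and their summed level was 1100 to 4010 CPM (counts scaled to a common library size) in leaf and 37.8 to 177 in rhizome. The CPM used here are TMM-scaled. Because ribosomal RNA fills most of each library, they serve to compare libraries and not as absolute amounts. Both cut libraries at 4 days favoured long features: the upper against the lower quartile group of lengths differed by 0.92 (log2) in leaf and 0.80 in rhizome, and by -0.34 to 0.04 in the other libraries.

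The members split into 45 features of the 19S particle, 27 of the 20S core and 3 of other proteasome proteins, 39 of autophagy, 2 named for senescence, 12 papain-type or calpain-type cysteine proteases, 1 vacuolar-processing enzyme, 6 metacaspases, 10 aspartic proteinases, 22 subtilisin-like proteases and 40 serine carboxypeptidases. They are not 207 separate genes. They fall into 161 clusters or single features, and 76 of them sit in 30 clusters that hold several members and share reads. The filter on low counts passed 129 members for testing. Among the 78 left out, 51 had under 10 counts over all libraries. Tested were 7 of 22 subtilisin-like proteases, 5 of 12 papain-type or calpain-type cysteine proteases, 20 of 39 autophagy features and 20 of 40 serine carboxypeptidases. Of the 19S particle 41 of 45 features were tested and of the 20S core 21 of 27.

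The proteasome was the most even of these classes across libraries. All 7 alpha and 7 beta types of the 20S core were found, as were 6 ATPase and 12 non-ATPase subunit types of the 19S particle. The summed level of the 20S core was 67.3, 72.1, 80.5 and 74.4 CPM in leaf (uncut and cut at 4 days, then uncut and cut at a month) and 105, 78.3, 83.3 and 92.7 CPM in rhizome in the same order, a 1.56-fold range. This order, uncut before cut and 4 days before a month, is kept for every list of values below. For the 19S particle the sums were 138, 204, 155 and 139 CPM in leaf and 188, 232, 164 and 168 CPM in rhizome, a 1.68-fold range. Over its 8 libraries the median feature had a standard deviation of 0.47 (log2) in the 20S core and 0.50 in the 19S particle, against 0.55 for autophagy, 0.60 for all members tested and 0.76 for all 11682 features tested. The median tested feature of the 20S and 19S particles was at 3.56 CPM and that of all features at 1.65 CPM. The share of counting error in this gap was not tested.

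**Figure D1:**
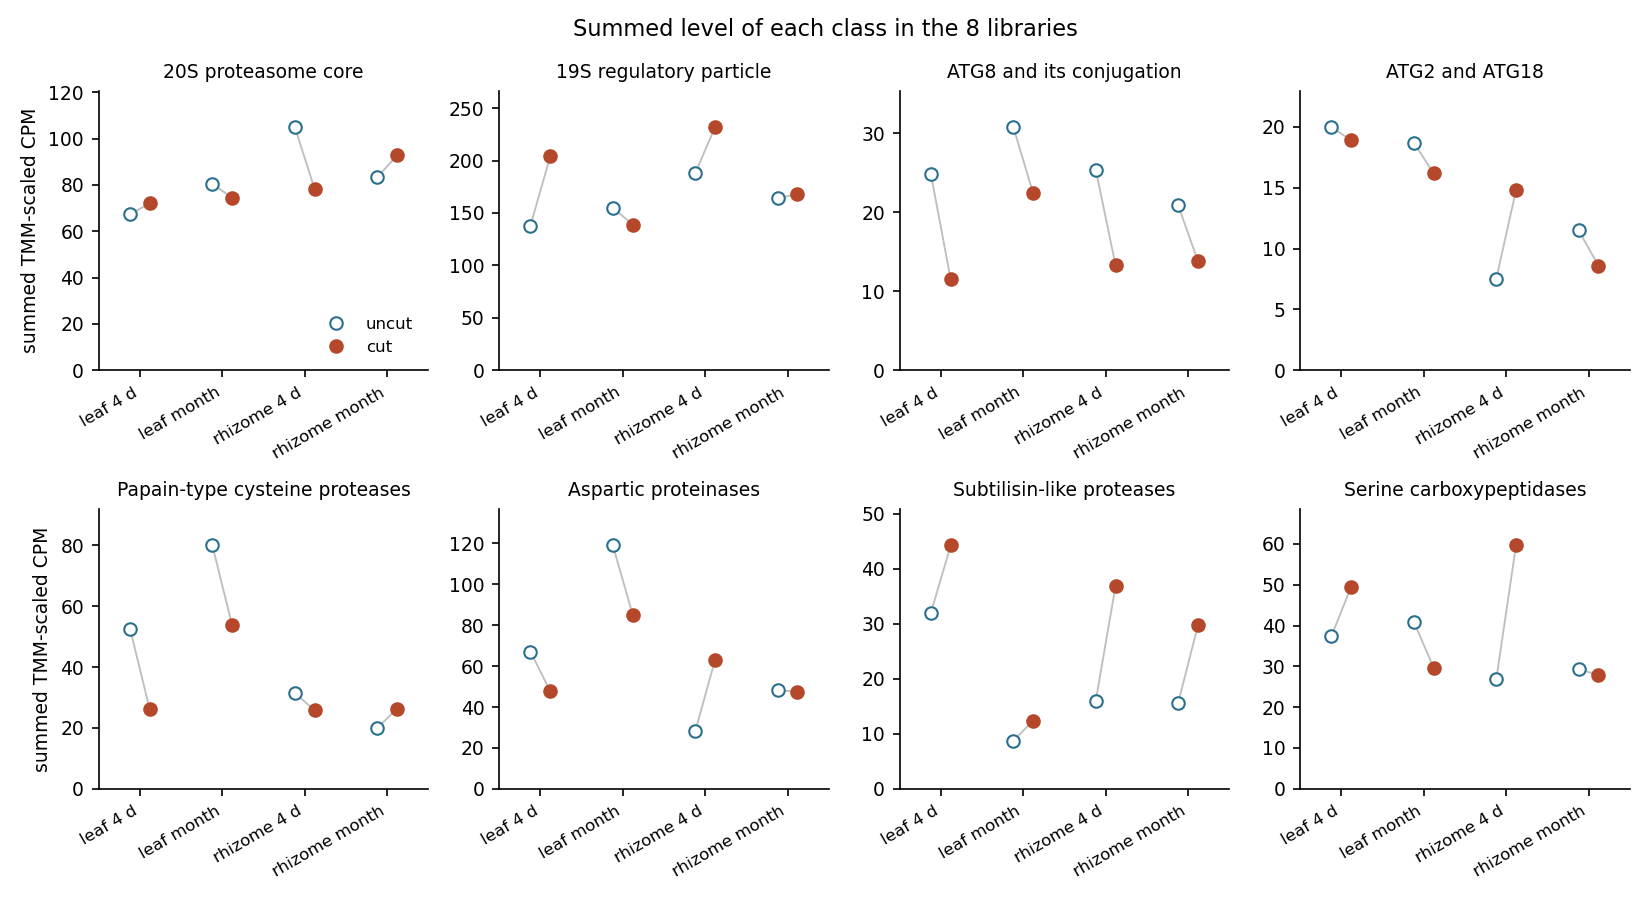
Summed level of 8 classes (y axis, TMM-scaled CPM, from 0) in each library, with tissue and time on the x axis, open points for uncut and filled points for cut explants and a grey line joining each pair. The 20S core stays between 67.3 and 105 CPM, whereas the subtilisin-like proteases run from 8.71 to 44.2 CPM and the 4 cut points of ATG8 and its conjugation lie under their uncut partners.

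Single subunits are shown by the highest and the steadiest of them. The alpha type-6 subunit CL114.Contig2 (PAA1), a wall subunit of the outer ring, had 7.75, 11.1, 9.80 and 8.45 CPM in leaf and 10.3, 11.1, 13.4 and 11.3 CPM in rhizome. The ATPase subunit 4 homolog CL2297.Contig2 (RPT2A), one of the motor subunits that unfold substrates, had 11.1, 16.3, 11.7 and 12.2 CPM in leaf and 24, 17.3, 10.8 and 8.61 CPM in rhizome. These were the highest features of the 20S core and the 19S particle, and in both the tissues overlapped. Steadiest was the non-ATPase subunit 3 feature CL835.Contig1, between 3.29 and 4.19 CPM in all 8 libraries, with a standard deviation of 0.10 (log2); it was singled out after its values were seen.

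Of the 62 tested features of the 20S and 19S particles, none passed the test for tissue, time or cutting at an adjusted p of 0.05 (edgeR quasi-likelihood, Benjamini-Hochberg over all features tested). At an unadjusted p under 0.05 there were 2, 0 and 1 of the 62, where 23.8%, 19.1% and 8.28% of all features were, and DESeq2 called none. On the authors' FPKM scale limma called 1 of them for tissue, lower in rhizome: the alpha type-4 feature CL1986.Contig1 with 1 added and the alpha type-1-B feature CL1350.Contig2 with 0.1 added. Their fitted change was under 2-fold for 57 features by tissue, 60 by time and 58 by cutting, where 63.1%, 64.1% and 77.8% of all features stayed under 2-fold. Closest to a call was the beta type-4 subunit Unigene4796 (PBG1), with 3.93, 6.35, 3.33 and 3.62 CPM in leaf and 20.2, 8.17, 8.25 and 7.77 CPM in rhizome. Every rhizome library was above every leaf library. Such separation by tissue, in either direction, was seen in 9 of the 129 tested members, and its share over all features was not counted. The fitted difference of Unigene4796 was 1.27 ± 0.44 (log2, SE; edgeR adjusted p = 0.0886), against 0.06 on the FPKM scale (limma adjusted p = 0.948). It passed without the cut pair at 4 days (1.65, edgeR adjusted p = 0.0445) and had adjusted p = 0.191 to 0.225 without any other pair. The largest leaf to rhizome fall in the core was that of CL1986.Contig1, at -0.82 on the TMM scale, and the median over the 20S features was 0.36, beside -0.14 for all features tested.

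The ratio of the 2 subcomplexes differed in the libraries taken 4 days after cutting. Summed 19S counts were 2.83 times the 20S counts in cut leaf at 4 days (95% exact interval 2.64 to 3.03) and 2.97 times in cut rhizome at 4 days (2.77 to 3.17). In the other 6 libraries the ratio lay between 1.79 and 2.05, and none of those intervals reached above 2.21. The intervals cover counting error only. The 19S features were longer, with a median of 1426 bases against 1040 for the 20S core, and these were the same libraries that favoured long features. With each library's length trend removed, an alternative added after the trend had been seen, the ratios became 2.36 and 2.49 against 1.80 to 2.22 elsewhere. Over the pairs at 4 days the median 19S feature was 0.31 (log2) higher in cut explants, with 32 of 41 features above 0, and 0.09 with the length trend removed, the same as the 0.09 over all features.

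**Figure D2:**
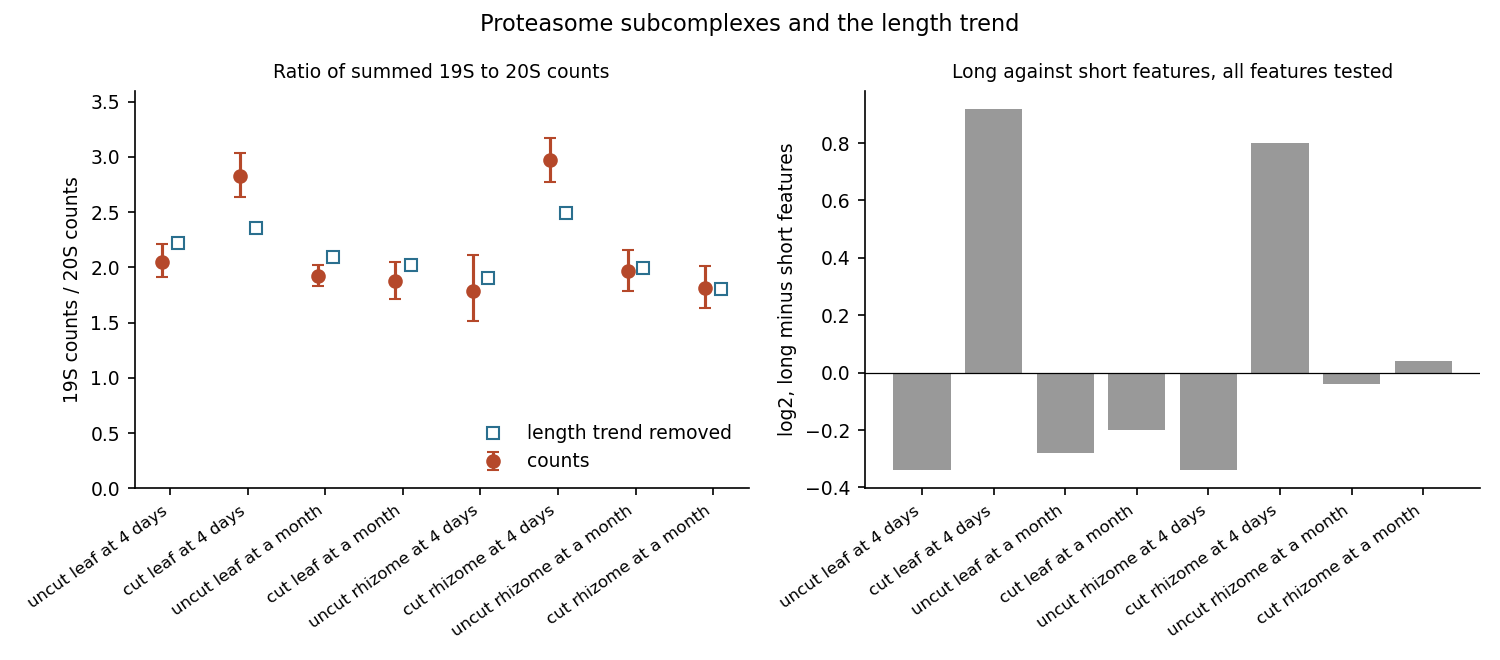
Left, ratio of summed 19S to summed 20S counts in each library (points with 95% exact intervals) and the same ratio with the length trend removed (open squares, no interval). Right, log2 level of features above the upper quartile of length minus that of features below the lower one, per library. The cut libraries at 4 days stand highest on both sides, at 2.83 and 2.97 on the left and 0.92 and 0.80 on the right.

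Other proteasome proteins were few. The activator PA200 (Unigene4815), an alternative cap of the 20S core, had 37, 85, 80 and 15 counts in leaf and 0, 57, 10 and 6 in rhizome, with its highest level in cut leaf at 4 days (5.62 CPM) and its next in cut rhizome at 4 days (3.85 CPM). It passed no test; the difference by cutting was 0.68 ± 0.71 (log2, SE; edgeR adjusted p = 0.885).

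Autophagy features were mostly low, with 20 of 39 tested and a median of 1.05 CPM. None passed the edgeR test for any factor or was called by DESeq2, and 1, 0 and 1 were under an unadjusted p of 0.05 for tissue, time and cutting among the 20, where 23.8%, 19.1% and 8.28% of all features were. On the FPKM scale limma called 2 as lower in rhizome, ATG18g (Unigene1548) and a low ATG8C feature (Unigene6145). Per kilobase the highest were ATG8f (CL1744.Contig1, 7.34 CPM per kilobase) and ATG8C (Unigene8298, 6.66), which encode the membrane-coating protein, whereas the kinase-complex members ATG13a, ATG11 and ATG101 were at 0.934, 0.775 and 0.590 CPM per kilobase. ATG8f had 9.96, 5.16, 14.5 and 9.56 CPM in leaf and 8.93, 5.20, 8.01 and 5.07 CPM in rhizome. In each matched pair it was lower in the cut library. By cutting its fitted difference was -0.75 ± 0.44 (log2, SE; edgeR adjusted p = 0.725).

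ATG8C showed the same order with a wider gap. Unigene8298 had 8.12, 1.65, 8.13 and 4.83 CPM in leaf and 6.58, 2.97, 5.54 and 4.05 CPM in rhizome. All 4 uncut libraries were above all 4 cut libraries. Such separation by cutting, in either direction, was seen in 9 of the 129 tested members, and its share over all features was not counted. The difference of ATG8C by cutting was -1.15 ± 0.50 (log2, SE), which did not pass (edgeR adjusted p = 0.533; DESeq2 adjusted p = 0.304). Summed over ATG8 and the proteins that process and attach it (ATG3, ATG4 and ATG5), cut libraries had 11.5, 22.4, 13.3 and 13.8 CPM and their uncut partners 24.8, 30.8, 25.4 and 20.9 CPM. The ATG8f and ATG8C features already described made up most of each sum, so the sums largely repeat them. With the length trend removed the cut sums were 12.7, 21.5, 15.1 and 14.0 and the uncut sums 23.3, 29.2, 23.9 and 20.7. The median of these 8 tested features was -0.62 by cutting, beside 0.09 for all features tested, and ATG4B, the protease that trims ATG8 (Unigene1339), and an ATG8i feature (Unigene4954) lay at 0.17 and 0.05.

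The ATG2 and ATG18 families, which supply lipid to the growing membrane and bind its phosphoinositide, had summed levels of 20, 18.9, 18.7 and 16.2 CPM in leaf and 7.52, 14.8, 11.5 and 8.61 CPM in rhizome, with no overlap. The ATG18g feature Unigene1548 had 94, 50, 182 and 46 counts in leaf and 0, 40, 21 and 7 in rhizome. Its difference was -1.54 ± 0.58 (log2, SE; edgeR adjusted p = 0.115). Over the 20 tested autophagy features 16 were lower in rhizome, with a median of -0.56 beside -0.14 for all features tested. In bulk tissue, fewer cells of a type and less RNA per cell cannot be told apart, and the green leaf markers given above moved the same way; their part in these differences was not tested.

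Between tissues 2 of the 129 members passed the test (1.55%), 1 in each direction, where 9.0% of all features passed (2.07% higher and 6.93% lower), which was 242 higher and 809 lower in rhizome. At an unadjusted p under 0.05 there were 14 members (10.9%), against 23.8% of all features. On the authors' FPKM scale the median feature moved from -0.14 to -0.73 (log2 of FPKM + 1), the split of all calls became 79 higher against 2503 lower, and 9 members were called, all lower in rhizome. These included cysteine proteinase 1, the vacuolar-processing enzyme, oryzasin and ATG18g, each described here with its TMM-scaled values.

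The first was named for a serine carboxypeptidase-like protein, and whether it acts as a protease was not tested. CL358.Contig1, named for SCPL2, had 23, 10, 102 and 14 counts in leaf and 0 in all 4 rhizome libraries. Leaf was above rhizome in 4 of 4 pairs, at least 21.8-fold against a floor of 3 counts over the rhizome libraries, and at least 11.4-fold with any 1 library left out (edgeR adjusted p = 0.00639). Its cluster holds 3 other member contigs, named for SCPL18 and SCPL7, that were read in rhizome. Summed over the cluster the difference was -0.67 (log2) and did not pass (edgeR adjusted p = 0.343). How reads were shared among these contigs was not tested. The contig CL358.Contig4 (SCPL7) had 54, 61, 118 and 13 counts in leaf and 0, 67, 13 and 0 in rhizome.

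The second was an aspartic proteinase. Unigene6097, named for PCS1, which in Arabidopsis is needed for cell survival in gametes and embryos, had 3, 10, 48 and 7 counts in leaf and 3, 22, 51 and 26 in rhizome. As levels these were 0.184, 0.661, 1.63 and 0.705 CPM in leaf and 1.41, 1.49, 6.28 and 4.39 CPM in rhizome. The tissues overlapped through uncut leaf at a month, but within every pair rhizome was higher, by 2.04 ± 0.54 (log2, SE; edgeR adjusted p = 0.0293). The call was lost without the cut pair at a month, the uncut pair at 4 days or the uncut pair at a month (1.89 to 2.17 and adjusted p = 0.0688 to 0.169). It was also lost with an additive model of the factors (1.99, edgeR adjusted p = 0.0513). On the FPKM scale with 1 added the difference was 0.60 (limma adjusted p = 0.411).

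Leaf-side levels of the large vacuolar proteases were higher in most pairs, without passing. In cut explants at 4 days the vacuolar-processing enzyme and oryzasin were higher in rhizome. Cysteine proteinase 1 (Unigene8163, named for a maize papain-type protease) was the most abundant member per kilobase, at 22.9 CPM per kilobase. It had 47.8, 20.4, 75 and 46.2 CPM in leaf and 25.4, 19.9, 10.7 and 20.8 CPM in rhizome. Leaf was higher in 4 of 4 pairs although the tissues overlapped, and the difference was -1.21 ± 0.48 (log2, SE; edgeR adjusted p = 0.134), or -0.63 without the uncut pair at a month (adjusted p = 0.640). The vacuolar-processing enzyme (Unigene10419), a cysteine protease that matures other vacuolar proteins and takes part in programmed cell death in other plants, had 15.4, 5.55, 19.6 and 9.06 CPM in leaf and 4.70, 6.42, 2.96 and 3.21 CPM in rhizome. Both uncut leaf libraries stood above the rest, and the difference was -1.42 ± 0.51 (log2, SE; edgeR adjusted p = 0.0985). It passed without the cut pair at 4 days (-1.93, adjusted p = 0.0254) and with no count filter (-1.55, adjusted p = 0.0329). Without the uncut pair at a month it was -0.88 (adjusted p = 0.491), and without either other pair the adjusted p was 0.261 or 0.266. Rice-type oryzasin (Unigene5809), a vacuolar aspartic proteinase, had 37.0, 27.4, 58.9 and 45.1 CPM in leaf and 9.40, 34.2, 19 and 20.6 CPM in rhizome, a difference of -1.10 ± 0.46 (log2, SE; edgeR adjusted p = 0.152).

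These 3 proteases shared a peak in uncut leaf at a month. In that library cysteine proteinase 1 was 6.99-fold and the vacuolar-processing enzyme 6.62-fold above uncut rhizome at a month, by their scaled counts (95% exact intervals 5.64 to 8.77 and 4.4 to 10.4). Read by size alone (a ratio of 4-fold or more and 50 counts or more on the higher side), 8 of 81 eligible members were lower in that rhizome library (9.88%), where 18.1% of all eligible features were. None was higher, against 3.67% of features. The others included a metacaspase-1 feature (CL490.Contig1), with 292 counts in leaf and 15 in rhizome (5.38-fold by scaled counts, 3.21 to 9.73). Another was ATG2 (Unigene10362), with 54 and 2 (7.46-fold, 1.97 to 63.1). In the opposite direction, the subtilisin-like protease SBT1.5 (Unigene5029) had 61 counts in cut rhizome and 11 in cut leaf at a month, a 9.30-fold ratio (4.85 to 19.6), and it was the 1 member higher in rhizome in any pair (4.0% of eligible members there, against 5.56% of features). Its fitted difference by tissue was 1.49 ± 0.55 (log2, SE; edgeR adjusted p = 0.106). In uncut explants at 4 days 3 of 38 members were lower in rhizome (7.89%, against 17.8% of features) and none higher (against 2.09%): SBT1.7 (Unigene3626), ATG18g (Unigene1548) and the beta type-2-A subunit CL845.Contig2. In cut explants at 4 days no member passed by size, where 2.44% of features were higher and 9.69% lower, and in cut explants at a month none was lower, against 17.3%.

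**Figure D3:**
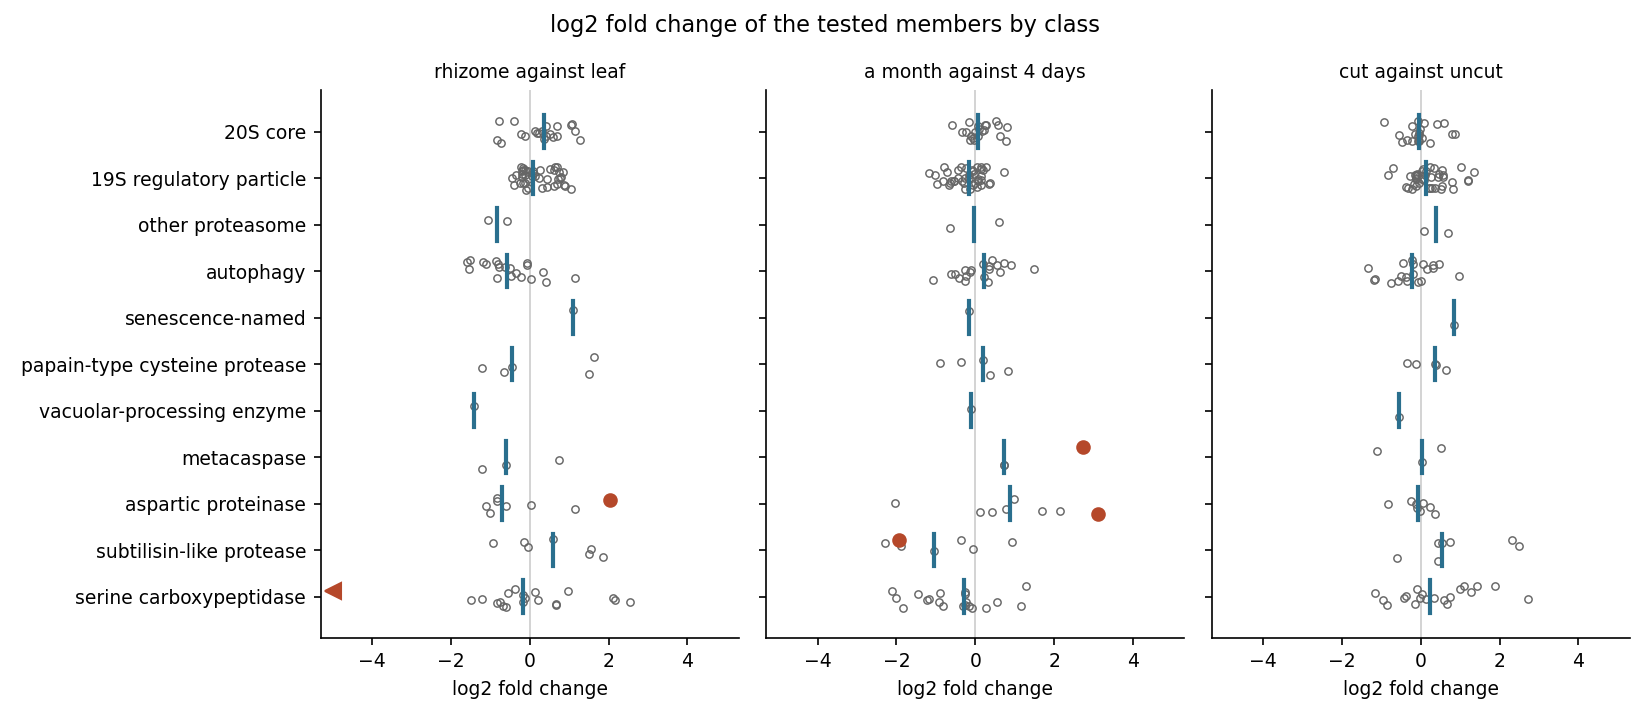
log2 fold change (x axis) of the 129 tested members in each class (y axis) for tissue, time and cutting. Open points did not pass, filled points passed at an adjusted p of 0.05, the triangle at the left edge is the SCPL2 feature with no rhizome count, vertical jitter has no meaning and blue bars are class medians. Of the 62 features of the 20S and 19S particles, 57, 60 and 58 lie within 2-fold of 0 for tissue, time and cutting. The filled points, 2 for tissue and 3 for time, are all in the classes named for proteases.

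Between a month and 4 days 3 of 129 members passed (2.33%), 2 higher and 1 lower at a month, where 8.76% of all features passed (7.81% higher and 0.95% lower). All 3 were proteases. At an unadjusted p under 0.05 there were 10 members (7.75%), against 19.1% of all features. The green leaf markers also moved with time: 9 of 31 were lower at a month and none was higher (29%, against 0.95% of all features lower), with a median of -1.48. Their summed level was 4010 and 2710 CPM in leaf at 4 days and 1100 and 1460 at a month, and 137 and 177 CPM in rhizome at 4 days and 37.8 and 94.1 at a month. Their part in the differences by time was not tested.

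Aspartic proteinase-like protein 2 (Unigene5836) rose. It had 15 and 11 counts in leaf at 4 days and 339 and 66 at a month, and 0 and 15 in rhizome at 4 days and 40 and 20 at a month. As levels these were 0.922, 0.727, 11.5 and 6.64 CPM in leaf and 0, 1.01, 4.93 and 3.38 CPM in rhizome. All 4 libraries of a month were above all 4 of 4 days, by 3.11 ± 0.63 (log2, SE; edgeR adjusted p = 0.00834). The ratio of pooled scaled counts was 10.3-fold (95% exact interval 7.46 to 14.5) and 6.19-fold without uncut leaf at a month. Without the uncut leaf pair the call was lost (2.92, adjusted p = 0.0596).

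Metacaspase-1 (Unigene10640) rose as well. Metacaspases are cysteine proteases distantly related to caspases, and in Arabidopsis metacaspase-1 promotes cell death on infection. The feature had 0.922, 0.331, 2.08 and 3.62 CPM in leaf and 0, 0.810, 6.53 and 5.07 CPM in rhizome. The times did not overlap, and the difference was 2.72 ± 0.69 (log2, SE; edgeR adjusted p = 0.0287). It was lost without the cut leaf pair, the cut rhizome pair or the uncut rhizome pair (2.26 to 2.79, adjusted p = 0.0506 to 0.102). A second feature named for metacaspase-1, CL490.Contig1, had 3.69, 0.860, 9.94 and 3.12 CPM in leaf and 2.82, 2.09, 1.85 and 1.86 CPM in rhizome, without a common direction in the 2 tissues; its difference by time was 0.72 ± 0.58 (log2, SE; edgeR adjusted p = 0.588).

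Subtilisin-like protease SBT1.7 (Unigene3626) fell. This secreted serine protease acts in the release of seed coat mucilage in Arabidopsis. It had 278, 287, 82 and 33 counts in leaf and 7, 141, 21 and 15 in rhizome. Leaf at 4 days stood highest, at 17.1 and 19 CPM, cut rhizome at 4 days followed at 9.52 CPM, and the other 5 libraries lay between 2.53 and 3.32 CPM. It was lower at a month in 4 of 4 pairs, and it fell by 1.94 ± 0.54 on the log2 scale (edgeR adjusted p = 0.0426). The feature is 2641 bases long, and with the length trend removed the difference was -1.52 (edgeR adjusted p = 0.0727). The call was also lost without the cut leaf pair, the uncut leaf pair or the cut rhizome pair (-1.65 to -1.99, adjusted p = 0.120 to 0.210). On the FPKM scale with 1 added the difference was -1.40 (limma adjusted p = 0.0613).

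**Figure D4:**
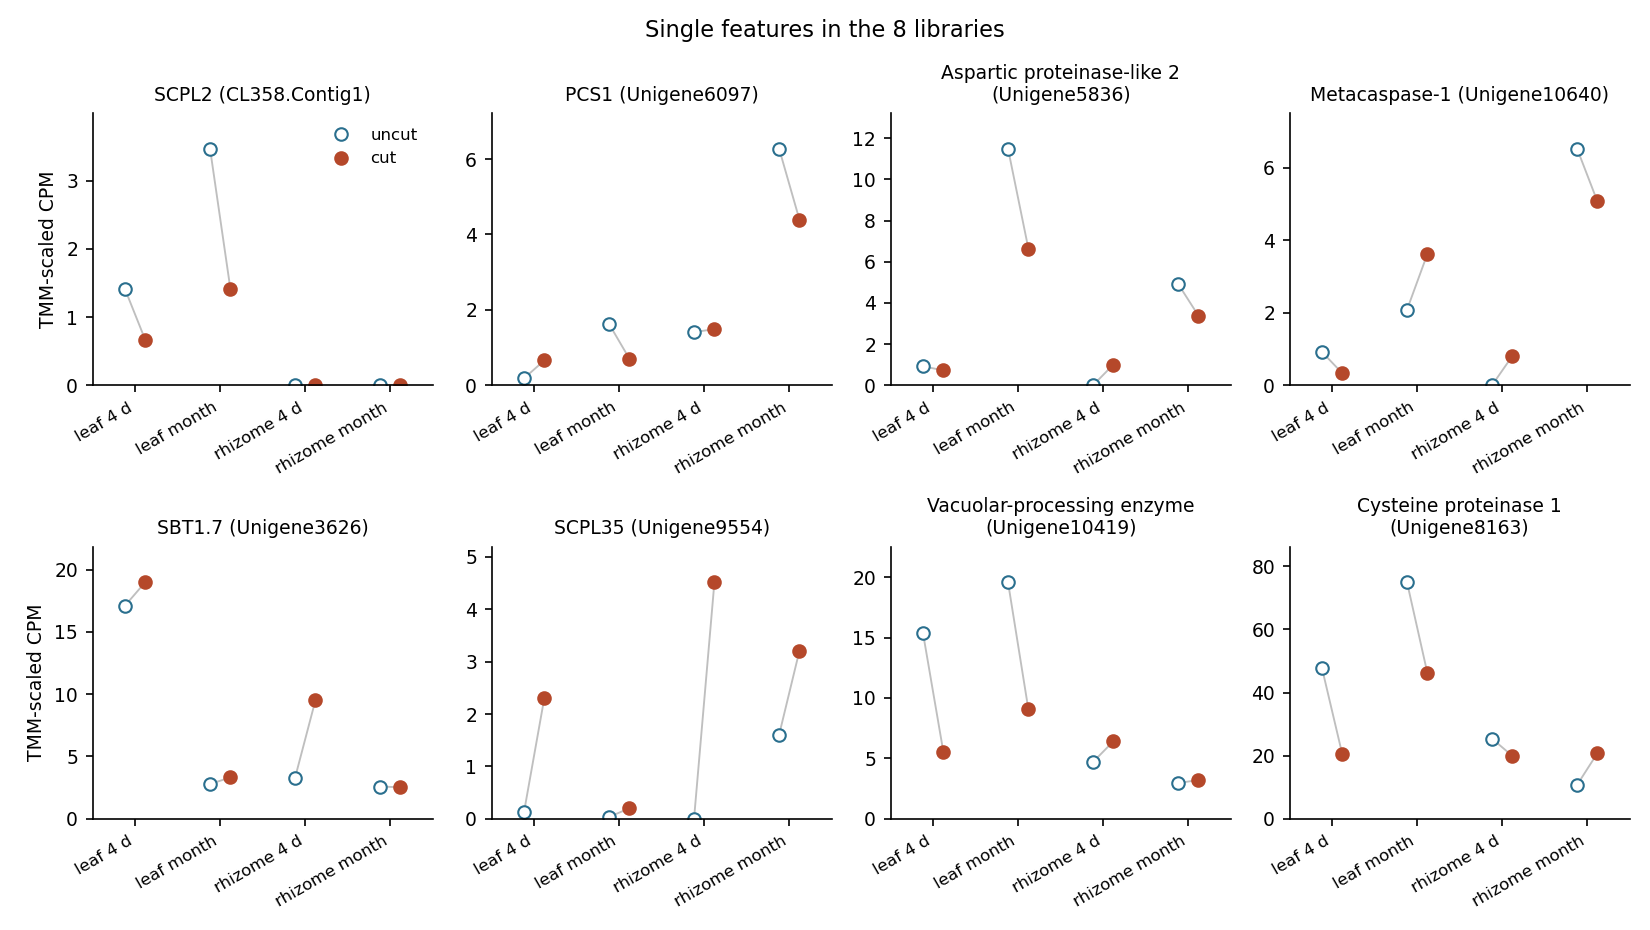
Level of 8 features of the protease classes (y axis, TMM-scaled CPM, from 0) in each library, with tissue and time on the x axis, open points for uncut and filled points for cut explants, and a grey line joining each pair. SCPL2 is at 0 in rhizome, PCS1 peaks at 6.28 in uncut rhizome at a month, aspartic proteinase-like 2 and metacaspase-1 lie higher at a month, and SBT1.7 lies highest in leaf at 4 days.

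For the effect of time in leaf, tested in a fit to all 8 libraries, 2 other subtilisin-like proteases fell. SBT2.5 (Unigene6098) and SBT1.6 (Unigene6292) passed as lower at a month (-3.97 ± 1.07 and -4.42 ± 1.24, log2, SE; edgeR adjusted p = 0.0387 and 0.0460), where 0.71% of all features passed in that direction, and Unigene5836 passed as higher, where 4.01% did. In leaf SBT2.5 had 33 and 114 counts at 4 days and 0 and 12 at a month, and SBT1.6 had 12 and 40 counts and then 0 and 2. In rhizome their differences by time were -0.94 ± 0.94 and 0.05 ± 1.08 (log2, SE), and no member passed there, where 2.53% of all features were higher and 0.197% lower. The differences between tissues in the effect of time did not pass (edgeR adjusted p = 1.0 for both), nor did those of any member; 5 members were under an unadjusted p of 0.05 (3.88%), where 3.37% of all features were. With the length trend removed SBT2.5 no longer passed (-3.10, adjusted p = 0.0811), SBT1.6 did (-4.23, adjusted p = 0.0241), and so did the carboxypeptidase features SCPL45 (Unigene1634, -3.96, adjusted p = 0.0491) and SCPL18 (Unigene6303, -3.72, adjusted p = 0.0405). Neither carboxypeptidase passed in the reported fit (adjusted p = 0.0723 and 0.068). The summed level of the serine carboxypeptidases was 37.4, 49.5, 40.9 and 29.7 CPM in leaf, highest in the cut library at 4 days and lowest in the cut library at a month, with both uncut libraries between.

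Read by size in single pairs, a month against 4 days, few members passed. In uncut leaf 2 of 81 members were higher (2.47%, against 14.8% of features), Unigene5836 and SCPL4 (CL1777.Contig1, with 138 counts against 16, 4.77-fold, 95% exact interval 2.84 to 8.59). As many were lower there (against 5.14%), SBT1.7 at 6.13-fold (4.77 to 7.93) and SBT1.4 (Unigene2460, with 31 counts against 75, 4.37-fold, 2.84 to 6.87), a protease known from senescing Arabidopsis leaves. In cut leaf Unigene5836 was higher (1.75%, against 19.3%) and 3 members were lower (5.26%, against 14.3%), SCPL45, SBT2.5 and SBT1.7. With the length trend removed, SBT2.5 moved from -2.64 to -1.38 (log2) and SBT1.7 from -2.51 to -1.43, both under 4-fold. SCPL45 stayed past 4-fold, at -3.19. In uncut rhizome metacaspase-1 (Unigene10640) and PCS1 (Unigene6097) were higher (11.1% of 18 members, against 31.8%) and none was lower (against 2.56%). In cut rhizome 2 of 54 were lower (3.7%, against 7.4%) and none was higher (against 11.9%). The lower ones were SCPL7 (CL358.Contig4), with 0 counts against 67 (at least 8.93-fold), and SCPL26 (Unigene9311), with 5 against 79 (6.32-fold, 2.60 to 20).

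Cutting gave no call among the members, and 1 feature of all 11682 passed (0.00856%). At an unadjusted p under 0.05 there were 6 members (4.65%, against 8.28% of all features), and DESeq2 called none of them either. The members nearest to a call were proteases higher in cut explants. SBT2.5 (Unigene6098) had 2.03, 7.54, 0 and 1.21 CPM in leaf and 2.82, 9.12, 1.48 and 4.73 CPM in rhizome. The cut library was higher in 4 of 4 pairs, by 2.31 ± 0.65 (log2, SE; edgeR adjusted p = 0.328), and by 1.56 with the length trend removed. SBT1.6 (Unigene6292) was also higher in 4 of 4 pairs, by 2.50 ± 0.71 (log2, SE; edgeR adjusted p = 0.328).

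For the effect of cutting at 4 days, tested in a fit to all 8 libraries, a carboxypeptidase passed. SCPL35 (Unigene9554) had 2 and 35 counts in uncut and cut leaf at 4 days and 0 and 67 in uncut and cut rhizome at 4 days. At a month it had 1 and 2 counts in leaf and 13 and 19 in rhizome. The difference at 4 days was 4.56 ± 1.17 (log2, SE; edgeR adjusted p = 0.00375), where 4.64% of all features passed as higher in cut libraries and 2.35% as lower, and it was 4.36 ± 1.18 with the length trend removed (adjusted p = 0.0122). No member passed within a month, where 0.24% of all features were higher and 0.0514% lower. Each of these tests rests on 2 pairs, and edgeR took its spread from all features. The difference between 4 days and a month in the effect of cutting was -3.27 ± 1.65 (log2, SE) and did not pass (edgeR adjusted p = 0.409). No member passed that test, where 1.96% of all features did, and 8 members were under an unadjusted p of 0.05 (6.2%, against 11.9% of all features). For the effect of cutting between tissues no feature passed at all (0.0% of all features and of members), with 2 members under an unadjusted p of 0.05 (1.55%, against 1.7%).

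By size alone, single cut against uncut pairs picked out few members. In leaf at 4 days SCPL45 (Unigene1634) was higher in the cut library, with 53 counts against 4, a 14.3-fold ratio (95% exact interval 5.25 to 54.2), as 1 of 59 eligible members (1.69%, against 11.1% of all features). Lower in that library were ATG8C (Unigene8298), with 25 counts against 132 (4.91-fold, 3.18 to 7.86), and metacaspase-1 (CL490.Contig1), with 13 against 60 (4.29-fold, 2.33 to 8.52), 3.39% of members against 8.44% of all features. In rhizome at 4 days 4 of 54 members were higher in the cut library (7.41%, against 16% of features), 3 of them 19S subunits. By scaled counts the ATPase feature CL2189.Contig3, with 110 counts against 0, was at least 5.27-fold higher. The ATPase feature CL2297.Contig3, with 105 against 3, was 5.03-fold higher (1.67 to 24.8). The scaffold subunit RPN2A (Unigene10279), with 137 against 3, was 6.56-fold higher (2.2 to 32.2). The fourth was an SCPL18 feature (Unigene8047), with 113 against 4 (4.06-fold, 1.54 to 15.2). Sister contigs of those ATPases were read in the uncut library: CL2189.Contig2 had 8.93 CPM there and 10.6 CPM in the cut one, and CL2297.Contig2 had 24 and 17.3. With the length trend removed, the log2 ratios of RPN2A and Unigene8047 moved from 2.71 and 2.02 to 1.6 and 1.43, under 4-fold. ATG8C in leaf moved from -2.3 to -1.8, also under 4-fold. The ATPase features CL2189.Contig3 and CL2297.Contig3 stayed above it, at 2.14 and 2.2. At a month no member passed in leaf or rhizome in either direction, where 1.5% and 3.83% of all features were higher and 2.19% and 1.18% lower.

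Among the remaining cysteine proteases, both xylem cysteine protease features, CL71.Contig1 and CL71.Contig4 (XCP1), which come from 1 cluster, had no count in uncut leaf at a month, the library with the most member counts. CL71.Contig1 had 17, 26, 0 and 10 counts in leaf and 4, 24, 30 and 9 in rhizome, and passed no test. RD21B (Unigene10378) had 2.71, 2.78, 5.07 and 5.54 CPM in leaf and 1.88, 3.78, 1.85 and 2.53 CPM in rhizome. The calpain DEK1, which specifies epidermal cells in maize and Arabidopsis, had 6 features of which 1 was tested. Senescence-associated protein 13 (CL1446.Contig2), an Arabidopsis senescence marker of the short-chain dehydrogenase family, had 9, 18, 19 and 9 counts in leaf and 3, 38, 9 and 13 in rhizome, and passed no test.

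Genes that feed or restrain these proteases were taken from lists by name. Of 78 tested ubiquitin features 10 were higher at a month and none was lower; 8 of the 10 were polyubiquitins, such as UBQ11 (Unigene3494, 4.02 ± 0.62, log2, SE; edgeR adjusted p = 0.00179), and 4 of those come from 1 cluster. Of 13 tested protease inhibitors 4 were higher at a month and none lower, among them 2 cystatins, which block papain-type proteases. The cystatin Unigene5233 had no count in the 4 libraries of 4 days and 197, 46, 7 and 3 counts at a month (uncut and cut leaf, then uncut and cut rhizome), at least 76.4-fold higher against a floor of 3 counts over the libraries of 4 days (edgeR adjusted p = 0.00287). The other, Unigene3694, rose by 3.56 ± 0.69 (log2, SE; edgeR adjusted p = 0.00626), and a serpin (CL2098.Contig1) by 2.52 ± 0.51. The shares higher at a month were 12.8% of the ubiquitin features and 30.8% of the inhibitors, against 7.81% of all features. Between tissues 1 ubiquitin feature was higher in rhizome and 1 lower, and 1 inhibitor was higher and 3 lower (23.1%, against 6.93% of all features lower). Of 12 tested features for chlorophyll breakdown 4 were lower in rhizome and none higher (33.3%, against 6.93% of all features lower): STAY-GREEN (CL163.Contig4, -4.59 ± 0.63), its paralogue SGRL (Unigene10693, -4.37 ± 0.82), pheophytinase (Unigene3674, -2.63 ± 0.56) and pheophorbide a oxygenase (Unigene4640, -2.65 ± 0.58). SGRL was also lower at a month (-3.04 ± 0.79), as 1 of 12 (8.33%, against 0.95%). By tissue the green leaf markers moved the same way (26 of 31 lower in rhizome). By time they moved as SGRL did (9 of 31 lower at a month). The list for chlorophyll breakdown had a median of -0.56 by time, with 5 of 12 features above 0. Its summed level in leaf was 40.1 and 32.7 CPM at 4 days and 73.4 and 51.2 CPM at a month. In leaf this sum was thus higher at a month, whereas that of the green leaf markers, given above, was lower. The part of the green leaf markers in these differences was not tested. None of the features on these lists passed for cutting.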

How the data were processed

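RNA-seq of 8 libraries was analysed. Every table gives assembled features an expected count and an FPKM value, per the file headers. The authors mapped reads with Bowtie2 and quantified them with RSEM, per the submitters' processing notes; versions, the assembler and the RNA selection used for each library (oligo dT or ribosomal RNA depletion, per the labels' protocols) are not given in the sources used here. Features absent from a library's table were set to 0.

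Expected counts were rounded and tested on the whole table with edgeR 4.0.16 (R 4.3.3): filterByExpr, TMM scaling and robust quasi-likelihood F tests, with a block for the combination of the other 2 factors (3 residual degrees of freedom, 2 for differences between effects). Errors are the log2 fold change over the square root of F. Benjamini-Hochberg adjustment ran over 11682 features with a threshold of 0.05. Single pairs were read with no test, as at least 50 counts and 4-fold, the lower library counted as at least 3. Ratios carry exact conditional 95% intervals. Standard deviations are of log2(CPM + 0.5). Length trends were loess fits (span 0.5) per library.

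Members, classes and lists were chosen with earlier results of these data known. Features named are those past the threshold, the highest and the smallest-p feature of each class, and up to 3 per direction in each pair, plus a few chosen after their values were seen (CL835.Contig1, the sister contigs, RD21B, CL71.Contig4, Unigene1634 and Unigene6303 in the test within leaf, CL1350.Contig2 and Unigene6145 on FPKM, and the low end of ranges). Alternatives were DESeq2 1.42.0, its size factors in edgeR, no filter, an additive model, contigs summed by cluster, ribosomal and organelle features removed, a length offset, limma 3.58.1 on log2 FPKM, and each pair left out. The scripts were checked on simulated counts. The sequences of the features were not used here.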

Additional observations from a re-analysis of the deposited data

How the results depend on the processing

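Members called for tissue (2 in the reported fit) numbered 6 with no count filter, 1 with the additive model, 1 with contigs summed by cluster, and 9, 10 and 8 with limma on FPKM (1 added, 0.1 added, and 1 added with no filter), where all were lower in rhizome; with a pair left out they ran from 1 to 6, the 6 without the cut pair at 4 days. Members called for time (3) ran from 1 to 2 with a pair left out and from 2 to 4 otherwise. Members called for cutting (0) numbered 1 with no count filter, SBT2.5, and 0 with any pair left out. None was called for a difference between effects under the length offset. By size alone the members past the rule in all pairs were 12 for tissue, 12 for time and 7 for cutting; with 20 counts they were 21, 28 and 13, and at 2-fold 43, 50 and 46. Directions turned for 4 features, none of them called: Unigene10560 (tissue) to -0.22, -0.33 and -0.22 on FPKM; CL1446.Contig2 (tissue) to -1.33 summed by cluster and -0.05 on FPKM with 0.1 added; Unigene10419 (time) to 0.07 with the length offset and from -0.45 to 0.14 with a pair left out, the last without the cut rhizome pair; CL71.Contig1 (cutting) from -0.40 to 1.49, the first without the leaf pair at a month. The cause was not tested, except that fewer libraries enter a fit without a pair. The reported fit already matches libraries in pairs, by their other 2 factors; the labels give no replicate numbers, so there was none to block on, and the additive model is the fit with no block for each combination. Depth limits the rhizome most: 3 counts stand for 1.41 CPM in uncut rhizome at 4 days and 0.102 CPM in uncut leaf at a month.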

Other observations

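Proteases of plastids and mitochondria, which are no members by name, differed between the tissues. Of 39 tested features 9 were lower in rhizome and none higher (23.1%, against 6.93% of all features lower), all 9 named for chloroplast proteins. Among them were FTSH2 features, subunits of the thylakoid protease that turns over damaged photosystem proteins (CL1448.Contig1, -3.27 ± 0.48, log2, SE; edgeR adjusted p = 0.000615), and also FTSH1 (CL1419.Contig3, -2.91 ± 0.56), DEGP1 (Unigene10751, -2.77 ± 0.57) and CLPP3 (Unigene3728, -2.44 ± 0.63). The summed level of all 56 features on the list was 721, 819, 478 and 729 CPM in leaf and 344, 252, 275 and 341 CPM in rhizome. Per kilobase the sums were 182, 213, 155 and 183 CPM in leaf and 75.6, 83.9, 69.4 and 86.0 CPM in rhizome. With the length trend removed the CPM sums were 1210, 370, 798 and 1330 in leaf and 380, 130, 312 and 285 in rhizome. These last sums overlapped, cut leaf at 4 days lying under uncut rhizome at 4 days. The sums say little on the 9 features called. Of the 11726 counts on the list in uncut leaf at 4 days, none of the 9 alone held more than 275. The green leaf markers moved the same way, 26 of 31 lower in rhizome, and their part was not tested. None of the 39 passed for time or cutting (edgeR; 2 and 0 at an unadjusted p under 0.05).

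The vascular list held 3 caffeic acid 3-O-methyltransferase features higher at a month among 10 tested (30%, against 7.81% of all features), 2 of them from 1 cluster. The median of the 10 by time was -0.30, with 4 above 0. By tissue 2 of the 10 were lower in rhizome and none higher (20%, against 6.93% of all features lower), CL177.Contig6 (-2.07 ± 0.50) and CL177.Contig7 (-2.77 ± 0.72), from the cluster that also holds 2 of the features higher at a month. The XCP1 features, named for a xylem protease, passed no test. Of 9 tested features on the list for dividing cells, 1 was lower in rhizome (11.1%, against 6.93% of all features), and none moved with time or cutting. It was a histone H3.3 (Unigene1449, -1.87 ± 0.46; edgeR adjusted p = 0.0205). This feature entered the list by the name histone H3, and whether it marks dividing cells was not tested.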
